A study of Mus musculus with 4 samples.

Results

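Cyclins, cyclin-dependent kinases (CDKs) and the CDK inhibitor gene Cdkn1a were examined in F123-ESCs, as the 10 rows of the RNAseq table whose gene symbol is Ccnd1, Ccnd2, Ccnd3, Ccne1, Ccne2, Ccna2, Ccnb1, Cdk1, Cdk2 or Cdkn1a. The choice used gene names, not measured values, but was made with earlier results of these data known. All 10 were found among the 24026 genes of the table. F123-ESCs are 1 hybrid male mouse embryonic stem cell (ESC) line of the genotype S129/CAST, whose autosomes come as an S129 copy from the mother and a CAST copy from the father. The line was untreated and was grown on feeder fibroblasts, which were left behind over passages on gelatin before harvest. PolyA RNA of 4 libraries, replicates 1 to 4, was sequenced, and each gene has an RPKM (reads per kilobase of gene length, scaled to the total of the allele) for each allele in each library. All 4 libraries form 1 group, so that the comparisons are between genes, between libraries and between the alleles within a library. The labels do not say whether the libraries came from separate cultures, and the p-values then measure the spread between these samples, which may be technical.

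The cell division cycle is driven by CDKs that act only when bound to a cyclin. D-type cyclins work with Cdk4 and Cdk6 and start the phosphorylation of the retinoblastoma protein in G1, cyclin E with Cdk2 completes it at the entry into S phase, cyclin A acts in S and G2 phase, and cyclin B with Cdk1 drives entry into mitosis. Cdkn1a encodes p21, an inhibitor of cyclin-CDK complexes whose gene is a classical target of p53. ESCs are known for a short G1 phase, low D-type cyclins and high cyclin E and Cdk2 activity. In RNA of a whole culture, a larger share of cells in a phase and more RNA per cell cannot be told apart.

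Promoter sequences were shown for the mitotic pair Ccnb1 and Cdk1, which had similar RPKM, for Cdk2, and for Cdkn1a, which had the highest RPKM. Each is the part of the 250 bases before the RefSeq start site (build GRCm38.p6) that lies in no annotated exon, written 5′ to 3′ on the strand of the gene. Capitals mark CCAAT boxes, the cell cycle genes homology region (CHR), E2F sites and p53 decamers, each searched on both strands.
Cdk1, chr10:69352939-69353162, minus strand: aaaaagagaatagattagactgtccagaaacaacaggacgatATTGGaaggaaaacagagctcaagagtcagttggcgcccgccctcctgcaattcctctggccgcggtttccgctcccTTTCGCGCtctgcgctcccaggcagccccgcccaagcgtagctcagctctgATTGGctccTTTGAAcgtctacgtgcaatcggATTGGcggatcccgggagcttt
Ccnb1, chr13:100786571-100786736, minus strand: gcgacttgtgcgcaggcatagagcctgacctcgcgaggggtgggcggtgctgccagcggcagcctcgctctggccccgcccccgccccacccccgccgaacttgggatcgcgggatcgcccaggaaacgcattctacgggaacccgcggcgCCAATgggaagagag
Cdk2, chr10:128705052-128705179, minus strand: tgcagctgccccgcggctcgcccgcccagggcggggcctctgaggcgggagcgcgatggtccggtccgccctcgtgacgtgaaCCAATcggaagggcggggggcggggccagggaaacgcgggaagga
Cdkn1a, chr17:29090729-29090975, plus strand: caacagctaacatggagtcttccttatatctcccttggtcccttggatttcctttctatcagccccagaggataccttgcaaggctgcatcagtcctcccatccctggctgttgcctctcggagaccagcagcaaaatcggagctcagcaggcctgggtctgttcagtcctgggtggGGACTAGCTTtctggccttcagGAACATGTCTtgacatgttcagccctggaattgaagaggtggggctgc

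The Cdk1 stretch held 3 CCAAT boxes (CCAAT), 1 CHR (TTTGAA) and 1 E2F site (TTTCCCGC, TTTCGCGC, TTTGCCGC or TTTGGCGC). The Ccnb1 and Cdk2 stretches held 1 CCAAT box each and neither of the other 2 motifs, while in the whole 250 bases Ccnb1 had 2 CCAAT boxes, Cdk2 had 1 E2F site and Cdk1 had 2 CHRs. The Cdkn1a stretch, before the first of its 2 RefSeq start sites, held 2 p53 decamers and none of the cell cycle motifs, and the 250 bases before the other start site held none of the marked motifs. No marked motif overlapped another. Among the 250 bases before the start of all 32851 RefSeq promoters, a CCAAT box was found in 33.8%, a CHR in 16.0%, an E2F site in 1.86% and a p53 decamer in 7.13%. A match describes letters and not a bound site. Promoters were also listed for Ccne1 and Ccnd3, and none for Ccnd1, Ccnd2, Ccne2 and Ccna2.

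Reads were counted only where they cover a single-nucleotide polymorphism (SNP) between the strains, so a level also depends on the SNPs a gene holds. The reads behind the values could be recovered from the steps of the RPKM. Their totals were 34120416 to 56627972 in a library, lowest in replicate 4, and S129 took 50.8% to 51.0% of them. All 6 pluripotency markers were present, with a summed RPKM of 757 to 949 over the libraries, or 673 to 841 with the length of all annotated exons. Markers of the feeder fibroblasts (5 of 5 with at least 1 RPKM) summed to 178 to 223 RPKM. Most of this was Col1a2, at 166 RPKM with a length of 850 bp. The sum was 23.9 to 29.6 RPKM with the length of all annotated exons. In a library, S129 made up 38.7% to 44.0% of the allele reads of Col1a1, 54.4% to 56.0% of Col1a2 and 54.0% to 55.6% of Col3a1. For Postn it was 39.3% to 44.4% and for Thy1 76.7% to 85.6%. Reads of the CAST allele were thus found for all 5 markers. The sources used here do not give the strain of the feeders. Primitive endoderm markers (3 of 4 with at least 1 RPKM) summed to 43.3 to 50.0 RPKM, of which Dab2 made 44.2, or to 5.44 to 6.02 RPKM with all annotated exons, and Sox17 was at 0.326 RPKM. None of the defining markers was at 0. The part of these other cells in the levels below was not tested.

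**Figure D1:**
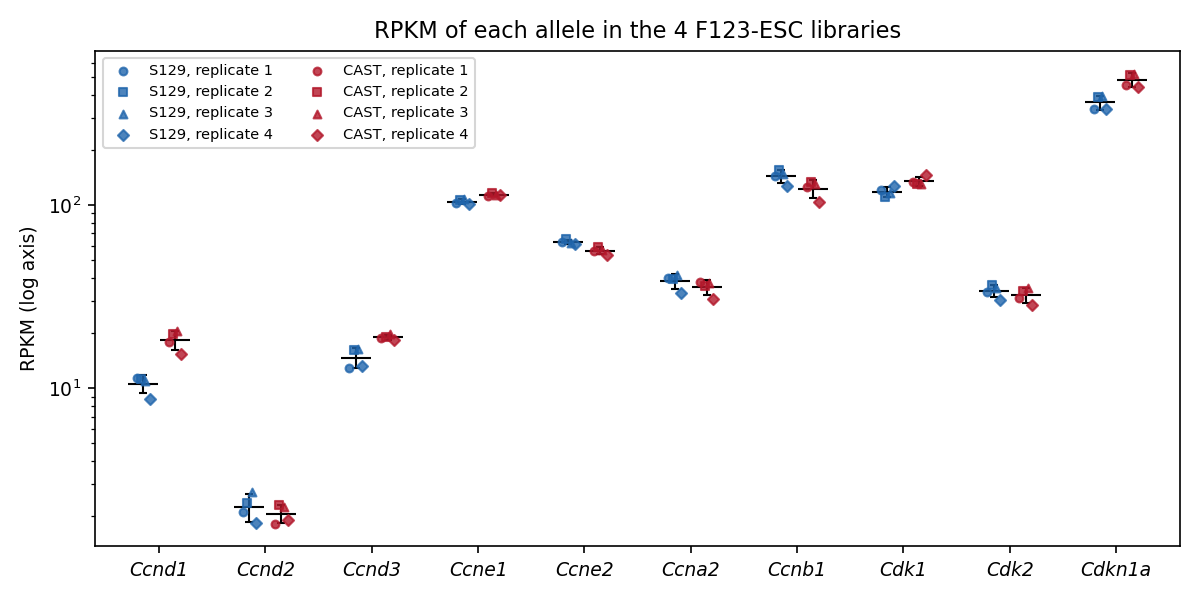
RPKM of the S129 (blue) and CAST (red) allele of each gene in the 4 libraries, on a log axis. Points are libraries and black bars the mean with SD (n = 4). Cdkn1a sits highest, between 335 and 522 RPKM, and Ccnd2 lowest, between 1.82 and 2.72 RPKM.

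The 10 genes spanned from 2.16 to 424 RPKM as the mean of both alleles. Cdkn1a was highest, and the mitotic genes Ccnb1 and Cdk1 and the G1/S cyclin gene Ccne1 followed above 100 RPKM. In the values as deposited, the D-type cyclin genes were lowest. Among the 20261 protein-coding genes, Cdkn1a had a higher RPKM than 98.9%, Ccnb1 than 96.6%, Cdk1 than 96.4% and Ccne1 than 95.7%. At the other end, Ccnd2 exceeded 52.6%. In the plot of allele RPKM by library, the distance between these groups of genes was larger than the spread between libraries.

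Among D-type cyclins, which link growth signals to the cycle, Ccnd1 (ENSMUSG00000070348, chr7:144929931-144939925 in mm10, minus strand) had 14.6, 15.5, 15.8 and 12.1 RPKM in replicates 1 to 4, with a mean of 14.5 ± 1.66 (SD, n = 4). Ccnd2 (ENSMUSG00000000184, chr6:127125162-127152193, minus strand) had 1.96, 2.33, 2.48 and 1.86 RPKM, with a mean of 2.16 ± 0.293 (SD, n = 4). Ccnd3 (ENSMUSG00000034165, chr17:47505051-47599691, plus strand) had 15.9, 17.7, 18.1 and 15.8 RPKM, with a mean of 16.9 ± 1.19 (SD, n = 4). Ccnd2 was lower than both others in every library, without overlap. On the log2(RPKM+0.1) scale, Ccnd1 exceeded Ccnd2 by 2.69 ± 0.0988 (SD over libraries, n = 4; 6.47-fold; p = 0.13 in an exact two-sided sign-flip test over the libraries, adjusted p = 0.13 over 6 pairs). With 4 libraries 0.13 is the smallest p this test can give, and all 6 pairs within families had it. Ccnd3 exceeded Ccnd1 by little, in 4 of 4 libraries, at a log2 difference of -0.22 ± 0.113 for Ccnd1 minus Ccnd3 (SD, n = 4). This order turned with the gene length, as described below.

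The E-type cyclins activate Cdk2 at the start of DNA replication. Ccne1 (ENSMUSG00000002068, chr7:38097984-38107534, minus strand) had 107, 112, 110.5 and 107 RPKM in replicates 1 to 4, with a mean of 109 ± 2.34 (SD, n = 4). It varied least of the 10 genes between libraries, with a coefficient of variation of 2.14%. Ccne2 (ENSMUSG00000028212, chr4:11191351-11204779, plus strand) had 59.6, 62.3, 59.5 and 57.1 RPKM, with a mean of 59.6 ± 2.09 (SD, n = 4), and lay below Ccne1 in every library. Ccne1 exceeded Ccne2 by 0.87 ± 0.0305 on the log2 scale (SD, n = 4), or 1.83-fold.

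Cyclin A2 acts in S phase and G2, and cyclin B1 is the mitotic partner of Cdk1. Ccna2 (ENSMUSG00000027715, chr3:36564865-36572150, minus strand) had 39.1, 37.8, 39.6 and 31.8 RPKM in replicates 1 to 4, with a mean of 37.1 ± 3.59 (SD, n = 4). Ccnb1 (ENSMUSG00000041431, chr13:100778650-100786570, minus strand) had 135, 144, 139 and 115 RPKM, with a mean of 133 ± 12.6 (SD, n = 4). Both were lowest in replicate 4, and their ranges were far apart. Ccna2 minus Ccnb1 was -1.84 ± 0.0647 on the log2 scale (SD, n = 4), a 3.59-fold lower RPKM of Ccna2. Ccnb1 has near-identical processed copies in the genome, such as Ccnb1-ps with 99.2% identity over 1287 bp, Gm12856 with 98.1% over 1294 bp and Gm8416 with 97.3% over 1290 bp, so that some of its reads could belong to a copy.

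Of the kinases, Cdk1 is essential for mitosis and Cdk2 partners cyclins E and A. Cdk1 (ENSMUSG00000019942, chr10:69335146-69352938, minus strand) had 127, 120.2, 122.9 and 137 RPKM in replicates 1 to 4, with a mean of 127 ± 7.26 (SD, n = 4). Cdk2 (ENSMUSG00000025358, chr10:128697939-128705031, minus strand) had 32.3, 35.4, 35.3 and 29.5 RPKM, with a mean of 33.1 ± 2.82 (SD, n = 4). Cdk1 was higher in 4 of 4 libraries, by 1.93 ± 0.205 on the log2 scale (SD, n = 4), or 3.82-fold. The 2 kinases moved in opposite ways in replicate 4, where Cdk1 was highest and Cdk2 lowest.

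Cdkn1a (ENSMUSG00000023067, chr17:29090976-29100727, plus strand), the gene of the inhibitor p21, had 396, 452, 459 and 389 RPKM in replicates 1 to 4, with a mean of 424 ± 36.4 (SD, n = 4). In each library it was higher than the other 9 genes, and its lowest library was above their highest. The 3 protein-coding genes whose 8 allele values were nearest to those of Cdkn1a were Cd151, a tetraspanin gene (root mean square difference of 0.090 on the log2 scale over 8 values), Emb (0.11) and Aars, a tRNA synthetase gene (0.17). Cd151 had 377 ± 21.8 RPKM on S129 and 505 ± 33.4 RPKM on CAST (SD, n = 4 each). This match used the RPKM as deposited, so it rests on the gene lengths behind them, which are described below for Cdkn1a.

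In order of mean RPKM, the genes ran Cdkn1a, Ccnb1, Cdk1, Ccne1, Ccne2, Ccna2, Cdk2, Ccnd3, Ccnd1 and Ccnd2. Neighbours in this order did not overlap between libraries except for Ccnb1 with Cdk1 and Ccna2 with Cdk2. Ccnb1 was above Cdk1 in 3 of 4 libraries. Ccna2 was above Cdk2 in 4 of 4, although their ranges overlapped.

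**Figure D2:**
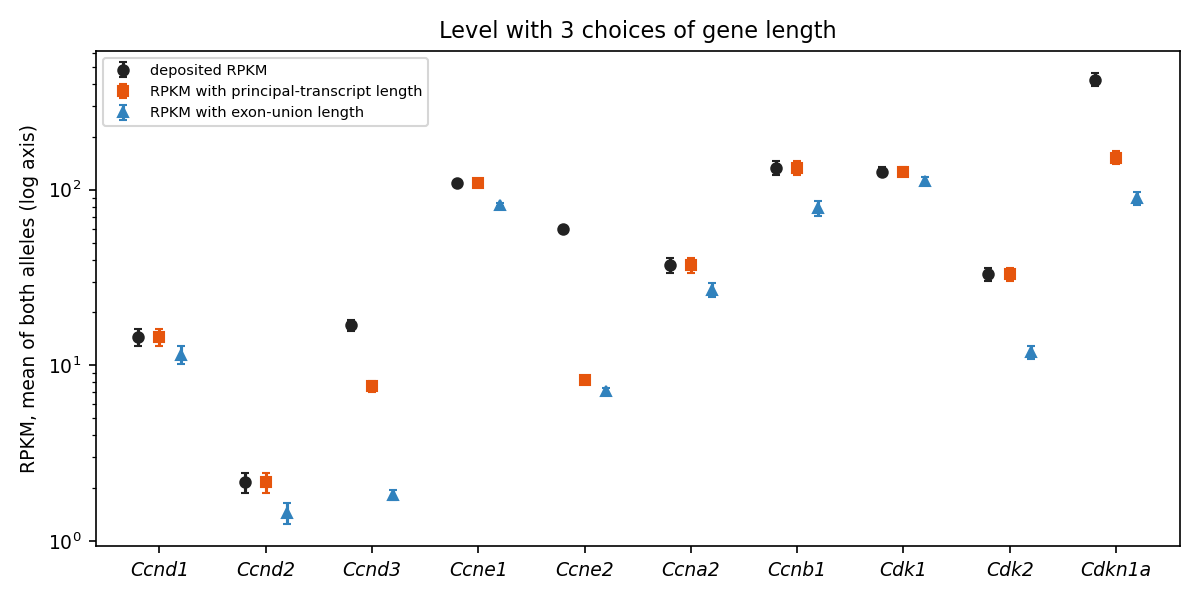
Mean of both alleles in RPKM on a log axis, as deposited (circles), with the length of the longest principal transcript (squares) and with the length of all annotated exons (triangles), with SD over libraries (n = 4). The triangles of Ccnd3 and Ccne2 sit at 1.83 and 7.13 RPKM, against deposited values of 16.9 and 59.6 RPKM.

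The order between genes rested on the length that each RPKM was divided by. For 9 of the 10 genes the recovered length was that of the first transcript listed in GENCODE M21, which was short for Ccne2 (418 bp, against 3006 bp for its longest principal transcript and 3495 bp for all annotated exons) and for Ccnd3 (952 bp, against 2113 and 8775 bp). For Cdkn1a the values gave 748 bp, which is no annotated transcript, against 2080 and 3553 bp. This is the shortest length that gives whole reads, and a multiple of it would give whole reads too, so that the reads of Cdkn1a and its levels on the other length scales are the lowest possible. With all annotated exons as the length, Cdk1 was highest at 112 ± 6.44 RPKM (SD, n = 4), then Cdkn1a at 89.3 ± 7.66 from 748 bp, Ccne1 at 82.0 ± 1.76 and Ccnb1 at 78.7 ± 7.45. Ccna2 followed at 26.9, Cdk2 at 11.9, Ccnd1 at 11.5, Ccne2 at 7.13, Ccnd3 at 1.83 and Ccnd2 at 1.45 RPKM. Of the neighbours in this order, Cdkn1a from 748 bp overlapped with Ccne1, Ccne1 with Ccnb1, and Cdk2 with Ccnd1. Had 1496 bp, the next multiple, been used for the deposited values, Cdkn1a would be at 179 RPKM, above Cdk1 and Ccne1, so its place among these genes is not settled on this scale.

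Differences within families moved with the length. Ccne1 exceeded Ccne2 11.4-fold with all annotated exons and 13.0-fold with the principal transcript, in place of 1.83-fold. Ccnd1 exceeded Ccnd3 by 2.58 and by 0.92 on the log2 scale, so that the direction of this pair was reversed, and Cdk1 exceeded Cdk2 9.36-fold with all annotated exons. Ccnd1 stayed above Ccnd2, and Ccnb1 above Ccna2, on all 3 scales. Ccne2 fell below Ccnd1, to 7.13 against 11.5 RPKM with all annotated exons and 8.29 against 14.5 RPKM with the principal transcript. The D-type cyclin genes were then no longer the 3 lowest. With the principal transcript Cdkn1a remained highest at 152 ± 13.1 RPKM (SD, n = 4), above Ccnb1 in 4 of 4 libraries. Their ranges then overlapped, with the lowest library of Cdkn1a at 140 and the highest of Ccnb1 at 144 RPKM. Cdkn1a, Ccnb1, Cdk1 and Ccne1 were among the highest genes either way, and with all annotated exons they exceeded 97.5%, 97.2%, 98.1% and 97.3% of the protein-coding genes. Ccne2 went from 92.3% to 75.9%, and Ccnd3 from 79.2% to 56.4%.

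**Figure D3:**
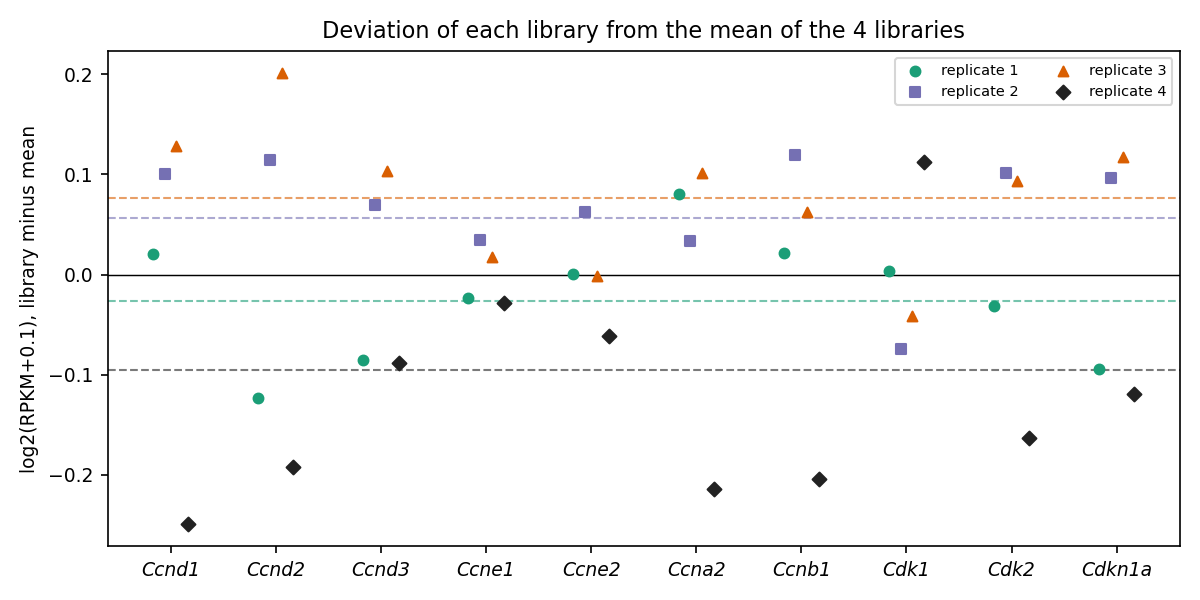
Deviation of each library from the mean of the 4 libraries on the log2(RPKM+0.1) scale, for the mean of both alleles. Dashed lines are the medians over all genes tested for each library in its colour. Replicate 4 (black) is lowest for 9 of 10 genes and highest for Cdk1.

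Replicate 4, the library with the fewest reads, had the lowest value of 9 of the 10 genes. Over the 13341 genes with at least 1 RPKM summed over both alleles this held for 53.5%. It held for 26 of 48 other cell-cycle control genes (54.2%). Replicates 1 and 4 were both below replicates 2 and 3 for 7 of the 10 members, 28 of the 48 (58.3%) and 50.8% of all genes tested. Both were above for 10.0%, 4.17% and 11.4%. Replicate 1 had the most reads, 56627972, and the cause of this split was not tested. The spread of a member over libraries, as the median SD of log2(RPKM+0.1), was 0.12, against 0.14 over all genes tested. In the plot of deviations by library, replicate 4 was at -0.25 for Ccnd1, -0.21 for Ccna2 and -0.20 for Ccnb1, against a median of -0.095 over all genes tested. For Cdk1 it was at 0.11. Among the 48 other cell-cycle control genes, 6 (12.5%) were also highest in replicate 4, a lower share than the 17.3% of all genes tested. They were Cdk4, Cdk5, Cdkn2a, Pkmyt1, Cks1b and Cks2, all named here after their values were seen. The pluripotency markers were lowest in replicate 4 too, at a sum of 757 RPKM, and the part of depth or cell makeup in these deviations was not tested.

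The alleles were compared by limma on the difference of log2(RPKM+0.1), S129 minus CAST, within each library, with Benjamini-Hochberg adjustment over 13341 genes. An adjusted p under 0.05 was called, which held for 62.7% of these genes (31.4% higher on S129 and 31.3% higher on CAST). Of the 10 members, 3 (30.0%) were called higher on S129, namely Ccne2, Ccna2 and Ccnb1. On CAST, 5 (50.0%) were called higher, namely Ccnd1, Ccnd3, Ccne1, Cdk1 and Cdkn1a, while Ccnd2 and Cdk2 were not called. The share on S129 was near that over all genes tested and the share on CAST was higher, on only 10 genes. The differences were small. Their median size was 0.17 on the log2 scale, against 0.31 over all genes tested, and none of the 10 reached 2-fold. Their signed median was -0.024, against -0.0034 over all genes tested.

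**Figure D4:**
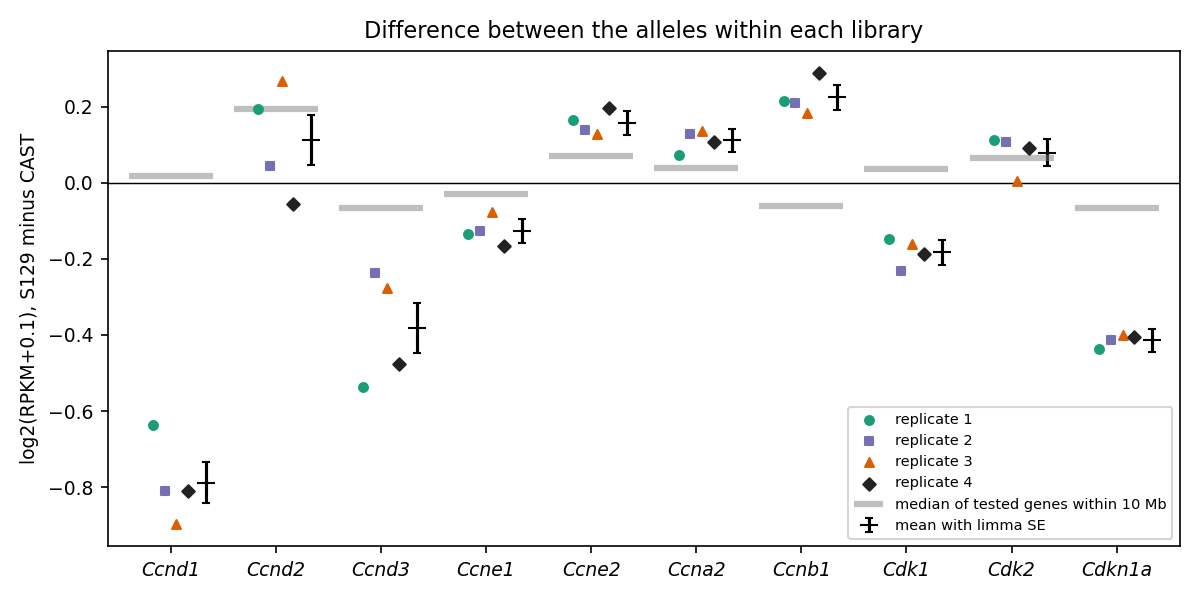
Difference between the alleles in log2(RPKM+0.1), S129 minus CAST, within each library (points), with its mean and limma standard error (black) and the median of the tested genes within 10 Mb (grey). Ccnd1, Ccnd3 and Cdkn1a lie between -0.90 and -0.24 in all 4 libraries, and Ccnb1 lies between 0.18 and 0.29.

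Ccnd1 differed most. Its S129 allele had 11.4, 11.2, 11.0 and 8.77 RPKM in replicates 1 to 4, and its CAST allele had 17.8, 19.7, 20.5 and 15.5 RPKM. CAST was higher in 4 of 4 libraries, and the alleles did not overlap. The log2 difference was -0.79 (limma standard error 0.053, adjusted p = 0.000401), a 1.73-fold lower RPKM on S129. S129 made up 35.7% to 39.8% of its 1537 to 3085 allele reads in a library, and in replicate 4 the share was 37.1% with an exact 95% binomial interval of 34.7% to 39.6%. This interval holds counting error alone, as the reads carry no molecular identifiers. The 105 tested genes within 10 Mb had a median of 0.018. The gene shares 1100 bp of exon with LTO1 on the other strand, and although the libraries were stranded, the sources used here do not say whether counting used strand. Without it, reads of both genes cannot be told apart.

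Ccnd3 was also higher on CAST in 4 of 4 libraries, with 12.9, 16.2, 16.3 and 13.2 RPKM on S129 and 18.8, 19.1, 19.8 and 18.4 RPKM on CAST, without overlap. The log2 difference was -0.38 (limma standard error 0.067, adjusted p = 0.00810). It shares 361 bp of exon with Bysl on the other strand and has a processed copy, Ccnd3-ps, with 96.3% identity over 881 bp. For Ccnd2 the alleles overlapped, at 2.10, 2.36, 2.72 and 1.82 RPKM on S129 and 1.82, 2.29, 2.24 and 1.90 RPKM on CAST. Its log2 difference of 0.11 (standard error 0.066, adjusted p = 0.205 from limma) rested on 201 to 422 reads per allele and library. Genes within 10 Mb of Ccnd2 had a median of 0.19 (140 genes).

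Cdkn1a had 336, 388, 395 and 335 RPKM on S129 and 456, 516, 522 and 444 RPKM on CAST in replicates 1 to 4. Every CAST value was above every S129 value. The log2 difference was -0.41 (limma standard error 0.029, adjusted p = 0.000457), a 1.33-fold lower RPKM on S129, and it varied little, from -0.44 to -0.40 in single libraries. S129 made up 43.3% to 44.0% of its reads, at least 9908 to 16950 in a library, against 50.8% to 51.0% of all allele reads. The 317 tested genes within 10 Mb on chromosome 17, where Ccnd3 also lies, had a median of -0.066.

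In this fit, the largest difference toward S129 among the members was that of Ccnb1. Ccnb1 had 145, 155, 148 and 127 RPKM on S129 and 125, 134, 130.0 and 104 RPKM on CAST. S129 was higher in 4 of 4 libraries, but the ranges of the alleles overlapped between libraries. The log2 difference was 0.22 (limma standard error 0.034, adjusted p = 0.00503). Genes within 10 Mb of Ccnb1 went the other way, with a median of -0.062 (89 genes). The processed copies of Ccnb1 named above carry letters of their own, and their part in the allele values was not tested. Its partner kinase gene Cdk1 was higher on CAST, with 120.3, 111, 116 and 128 RPKM on S129 and 133, 129.8, 129.8 and 146 RPKM on CAST. The log2 difference of Cdk1 was -0.18 (standard error 0.032, adjusted p = 0.00819 from limma), on 9734 to 16250 reads per allele and library.

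The other calls were close to the threshold. Ccne2 had 63.0, 65.2, 62.2 and 61.0 RPKM on S129 and 56.3, 59.3, 56.9 and 53.2 RPKM on CAST, without overlap, at a log2 difference of 0.16 (standard error 0.031, adjusted p = 0.0120 from limma). Its call was lost without replicate 1 (adjusted p = 0.0503 from limma) and with the median within 10 Mb taken out, at 0.086 (adjusted p = 0.0709 from limma). Ccne1 went the other way, with 102, 107, 108 and 101 RPKM on S129 and 112, 117, 113 and 113 RPKM on CAST, also without overlap. Its log2 difference was -0.13 (standard error 0.032, adjusted p = 0.0255 from limma), and it was not called when any of the 4 replicates was left out, with an adjusted p between 0.0586 (without replicate 3) and 0.0922 (without replicate 2), nor with the median within 10 Mb taken out (adjusted p = 0.0581 from limma). Both E-type cyclin genes thus had small differences, in opposite directions.

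Ccna2 had 40.1, 39.5, 41.5 and 33.0 RPKM on S129 and 38.1, 36.1, 37.8 and 30.6 RPKM on CAST, and S129 was higher in 4 of 4 libraries although the ranges overlapped. Its log2 difference was 0.11 (standard error 0.031, adjusted p = 0.0318 from limma), and it was not called when any of the 4 replicates was left out, with an adjusted p between 0.0668 (without replicate 4) and 0.120 (without replicate 3). The median of its chromosome 3 was -0.74, whereas that of the 63 tested genes within 10 Mb was 0.039. With the chromosome median taken out, Ccna2 came to 0.85 (adjusted p = 0.000121 from limma), and with the median within 10 Mb taken out to 0.072 (adjusted p = 0.105 from limma). Cdk2 was higher on S129 in 4 of 4 libraries, by 0.079 (standard error 0.035, adjusted p = 0.114 from limma), and was not called, with 33.6, 36.8, 35.3 and 30.4 RPKM on S129 and 31.1, 34.1, 35.2 and 28.5 RPKM on CAST. It became called when both alleles were given the same sum of RPKM on autosomal genes, at 0.18 (adjusted p = 0.0168 from limma). That scaling moved the median of all genes by 0.10 toward S129 and split the calls over all genes into 38.4% higher on S129 and 23.0% higher on CAST. Under it, Cdk1 came to -0.080 and Ccne1 to -0.023, both no longer called.

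The exons of Ccne2 share 609 bp with Ints8, those of Ccna2 510 bp with Exosc9, those of Cdk2 34 bp with Pmel, those of Cdkn1a 273 bp with AC167363.2 and those of Ccnd2 372 bp with Gm43126, each on the other strand. The part of these neighbours in the values was not tested.

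The same fit gave values for 48 of 49 other cell-cycle control genes, a list fixed with the roles. Ccnb3 was under the filter, at 0.0042 RPKM. Of the 48, 8 were called higher on S129 (16.7%) and 24 higher on CAST (50.0%), against 31.4% and 31.3% of all genes tested, with a median of -0.13. Of the other cyclin genes, 3 of 6 tested were higher on CAST (50.0%) and 3 were not called. Ccna1, the germ cell cyclin A gene, was the only one of the 48 with a difference of at least 2-fold, at -1.70 (standard error 0.23, adjusted p = 0.00338 from limma). It had 0.336 RPKM on S129 and 1.33 RPKM on CAST, on 5 to 34 reads per allele and library, and genes within 10 Mb of it on chromosome 3 had a median of -0.78. Ccng1, a p53 target, had the highest RPKM among the other cyclins at 227 ± 24.9 (SD, n = 4), and its alleles differed by 0.014 (adjusted p = 0.710 from limma).

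Of the 4 other cyclin-dependent kinase genes, 2 were called on S129 and 2 on CAST (50.0% each), against 31.4% and 31.3% of all genes tested. Cdk4, a partner of D-type cyclins, was at 205 ± 11.5 RPKM (SD, n = 4), higher than each of its 3 cyclins. This was also so with all annotated exons (129.4 RPKM). Cdk4 was higher on S129 by 0.21 (adjusted p = 0.00416 from limma). Cdk6, named here after its values were seen, was higher on S129 by 0.81 (adjusted p = 0.000108 from limma), or 1.75-fold. The 32 tested genes within 10 Mb of Cdk6 had a median of -0.12. Among pocket proteins and E2F factors, 2 of 13 were higher on S129 (15.4%), 4 on CAST (30.8%) and 7 not called. Tfdp1, a dimerisation partner of E2F, had the highest RPKM of them at 94.5 ± 10.1 (SD, n = 4) and was higher on CAST by 0.31 (log2 difference -0.31, adjusted p = 0.00118 from limma). This was no larger than its surroundings, since the 90 tested genes within 10 Mb had a median of -0.31.

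The 6 other CDK inhibitor genes were all below Cdkn1a in RPKM. The INK4 genes encode blockers of Cdk4 and Cdk6. The RPKM of a gene does not tell its transcripts apart, so that of Cdkn2a is not the level of 1 product. These genes were led by Cdkn2a at 70.4 ± 3.91 RPKM (SD, n = 4), then Cdkn2b at 30.8 ± 1.30 and Cdkn2d at 19.6 ± 0.988. Cdkn2c was at 0.576 ± 0.0212. Of the relatives of p21, Cdkn1b (p27) was at 3.96 ± 0.409 RPKM and Cdkn1c (p57) at 1.94 ± 0.255 (SD, n = 4). With all annotated exons Cdkn2a was at 51.2 RPKM, also below Cdkn1a. Cdkn2a was higher on CAST at -0.35 (adjusted p = 0.00566 from limma), Cdkn2d at -0.49 (adjusted p = 0.00147 from limma) and Cdkn1b at -0.30 (adjusted p = 0.00344 from limma). Cdkn2b was at -0.11 (adjusted p = 0.0939 from limma) and Cdkn2c at -0.19 (adjusted p = 0.374 from limma), neither of them called.

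Cdkn1c, an imprinted gene expressed from the maternal copy in many tissues, was higher on the maternal S129 allele, with 2.83, 1.92, 2.70 and 2.19 RPKM on S129 and 1.45, 1.66, 1.66 and 1.14 RPKM on CAST. The alleles did not overlap between libraries, and both were read. The log2 difference was 0.67 (standard error 0.14, adjusted p = 0.0142 from limma). It was not called without replicate 1 (adjusted p = 0.0534 from limma) or without replicate 3 (adjusted p = 0.0541 from limma). Cross and parent cannot be told apart in 1 line with S129 as the mother.

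Of the CDK phosphatases, kinases and binding partners, 1 of 8 was higher on S129 (12.5%), 6 on CAST (75.0%) and 1 not called. The shares over all genes tested were 31.4% and 31.3%. Cks1b, a small subunit of CDK complexes, had the highest RPKM of all genes described at 725 ± 82.5 (SD, n = 4) and was higher on CAST at -0.96 (adjusted p = 4.47e-05 from limma), beside a median of -0.85 for the 204 tested genes within 10 Mb on chromosome 3. Ubiquitin ligase parts that act on cyclins and inhibitors were called on CAST in 4 of 5 (80.0%) and on S129 in 0 of 5. These roles hold few genes. Fbxw7, a ubiquitin ligase part named here after its values were seen, was at -0.92, beside a median of -0.85 for the 149 tested genes within 10 Mb on chromosome 3. Cdc20, which starts the destruction of cyclin B, led them at 206 ± 12.1 RPKM (SD, n = 4), with alleles that differed by -0.013 (adjusted p = 0.724 from limma). The mitotic kinases and mitotic gene activators were called 2 on S129 and 2 on CAST of 6 (33.3% each). Mybl2, an activator of mitotic genes such as Ccnb1 and Cdk1, led them at 165 ± 12.6 RPKM (SD, n = 4) and was higher on S129 by 0.26 (adjusted p = 0.00232 from limma).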

How the data were processed

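RNAseq of F123-ESCs was used in 4 libraries. The authors checked reads with FastQC, removed ribosomal RNA, trimmed reads with Trimmomatic (version 0.40), aligned them with STAR to mm10 masked at SNPs and assigned them to S129 or CAST with SNPsplit. The deposited values are RPKM per gene, allele and library; the deposited averages and their log10 were not used. The program and annotation of gene counting are not given in the sources used here.

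From the RPKM, the allele totals, lengths and whole reads were recovered (20134 of 20243 genes above 0, or 99.5%, with a tolerance of 0.02 reads), and 24003 genes matched GENCODE M21. Limma (version 3.58.1, R 4.3.3) tested log2(RPKM+0.1), S129 minus CAST within a library, for genes with at least 1 RPKM summed over both alleles. Family pairs were compared by the two-sided exact sign-flip permutation test (scipy 1.17.1) and copies found by BLAST (2.17.0). The alleles were paired as reads of 1 library by the number in their labels. The S129 label of replicate 1 has a minus sign before its number, which was ignored. Deviations of the alleles correlated at 0.11 to 0.19 within and -0.15 to 0.14 between libraries. These ranges overlap, so the correlations do not settle the pairing. The recovery and limma were tested on simulated data.

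The members and lists were chosen with earlier results of these data known. Named are the members, the gene with the highest RPKM of each role, genes called with at least 2-fold, all CDK inhibitors, markers and the 3 genes most like Cdkn1a. Alternatives were another pseudocount, no filter, medians taken out, other scalings and lengths, whole reads, a variance trend, each allele alone, the median of the libraries, no pairing and each replicate left out. The median within 10 Mb, the principal transcript, the same reads on autosomal genes and each allele alone for levels were chosen after seeing the data.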

Additional observations from a re-analysis of the deposited data

How the results depend on the processing

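Of the 10 members, 3 were called higher on S129 and 5 on CAST. With the median within 10 Mb taken out, 1 and 4 were. Without the replicate block, which pairs the alleles by library, 0 members were called on S129 and 3 on CAST, and 4 and 15 of the other pathway genes in place of 8 and 24. With the same RPKM sum on autosomal genes, 4 members were called on S129 and 3 on CAST. With the chromosome median taken out, 8 of the other pathway genes were called on S129 and 20 on CAST, in place of 8 and 24. With 1 replicate left out, members called on S129 numbered 1 to 2 (1 without replicate 1) and on CAST 4 to 4, and the other pathway genes 3 to 7 (3 without replicate 1, 4 without replicate 3) and 17 to 21. The direction reversed for Ccnd2 with the chromosome median (-0.083) or the median within 10 Mb (-0.081) taken out, and with the median within 10 Mb for Cdc20 (0.034), Ccng1 (-0.036) and Tfdp1 (0.0077). Cdc20 came to 0 with the chromosome median taken out, since it holds that median. None of these reversed values was called. Ccnd1 minus Ccnd3 reversed with all annotated exons (2.58) and with the principal transcript (0.92), where only the length differs. Called members kept their direction under every alternative run.

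Levels moved by more than 1 SD when an allele was taken alone. This restates the allele differences above, as a level is the mean of both alleles. On S129 and CAST alone, Ccnd1 came to 10.6 and 18.4 RPKM, Ccnd3 to 14.7 and 19.0, Ccne1 to 104 and 114, Ccne2 to 62.9 and 56.4, Cdk1 to 119 and 135, and Cdkn1a to 364 and 484. Other causes were not tested. Among the members, Ccnd2 had the fewest reads, 201 to 422 per allele and library, and no value was far from the other libraries by Dixon's criterion among 20 tested.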
